A study of Mus musculus with 15 samples.

Results

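Endothelial and endocardial marker genes were followed in mouse ventricles at embryonic day 11.5. The 31 genes were taken by name from the 78317 gene identifiers in the count files. No rule on measured values chose them, but earlier results of these data were known when the list was made. All 31 were detected in every library, and all 31 passed the filter on low counts, which kept 20269 genes for testing. Ventricular RNA came from 15 libraries of embryos on a C57BL/6 background, all with the batch label 1. One line carried loxP sites around exons 2 and 3 of Atf4 and kept the polyadenylation signal (the CDS line, 4 knockout and 4 control libraries). The other line carried loxP sites around the polyadenylation signal (the PAS line, 4 knockout and 3 control libraries). Both were crossed with Xmlc2-Cre mice, in which Cre is driven in cardiomyocytes, so endothelial cells were not a target of the recombinase. Atf4 encodes a transcription factor induced by amino acid shortage and other stresses. Whether the controls carried floxed alleles or Cre, and whether ventricles were pooled, is not given in the sources used here. The labels describe the same material in conflicting ways. It is heart in the sample titles, ventricle in the series design and cultured neurons in the extraction protocol. Ventricle is used here as the series design gives it. The library preparation conflicts too, with a stranded mRNA kit in the series design and rRNA depletion in the extraction protocol. The design states 4 replicates per genotype, where 3 PAS control libraries were given.

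Endothelial cells line every vessel, and the endocardium is the endothelium that lines the heart chambers. At midgestation the ventricle has few coronary vessels, and the endocardium wraps the trabeculae and exchanges signals with the muscle beneath it. Both cell populations use vascular endothelial growth factor (VEGF) receptors, Tie receptors, Notch ligands, transcription factors of the ETS and SOXF families and a junction built on VE-cadherin. In bulk RNA, fewer endothelial cells and less RNA per endothelial cell cannot be told apart.

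Each CDS library held 30376847 to 46472141 counts. Each PAS library held 22623499 to 29315724, and the lines were counted in separate runs. Atf4 stood at 39.6, 48.1, 45.3 and 45.0 normalised CPM (counts scaled to the size of the library) in the libraries labelled CDS knockout and at 112 to 116 in the CDS controls. Its level in the libraries labelled PAS knockout was 259 to 304 CPM, against 92.2 to 100.1 in the PAS controls, so the targeted gene was lower under one knockout label and higher under the other. The third CDS knockout library stood apart from the other 3 CDS knockouts, with a chi-square per degree of freedom of 43.0 to 53.4 against each. Its erythroid markers summed to 4449 CPM, against 1640 to 2368 CPM in the other CDS knockouts and 1868 to 4069 CPM in the CDS controls. The part of erythroid RNA in the endothelial values was not tested. Cardiomyocyte markers dominated all libraries, with 15 genes summing to 41160 to 48380 CPM. Neuron and neural crest markers summed to 28.02 to 47.49 CPM over 8 genes, and leukocyte markers to 26.52 to 75.47 CPM over 12 genes. Megakaryocyte and platelet markers, which overlap with endothelium for some surface proteins, summed to 48.75 to 79.88 CPM over 10 genes, of which Gp1bb was at 0 in 14 of the 15 libraries.

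The RefSeq promoter table (GRCm38.p6, 250 bases before to 50 after a start) held 20 windows for 16 of the marker genes. The 4 receptor tyrosine kinases are shown because they are the receptors through which VEGF and angiopoietin signals reach these cells. Capitals mark the ETS core motif AGGAAG or CGGAAG, or its reverse complement CTTCCT or CTTCCG, the sequence read by factors such as Erg and Fli1. All are written 5′ to 3′ in the direction of transcription.
Kdr, chr5:75978406-75978705, minus strand: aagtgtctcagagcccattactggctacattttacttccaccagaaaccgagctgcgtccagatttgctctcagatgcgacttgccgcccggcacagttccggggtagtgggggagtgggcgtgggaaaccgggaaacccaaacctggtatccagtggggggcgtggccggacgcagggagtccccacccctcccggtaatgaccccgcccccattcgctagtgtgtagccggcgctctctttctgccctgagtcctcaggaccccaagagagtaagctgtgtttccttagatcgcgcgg
Flt1, chr5:147725962-147726261, minus strand: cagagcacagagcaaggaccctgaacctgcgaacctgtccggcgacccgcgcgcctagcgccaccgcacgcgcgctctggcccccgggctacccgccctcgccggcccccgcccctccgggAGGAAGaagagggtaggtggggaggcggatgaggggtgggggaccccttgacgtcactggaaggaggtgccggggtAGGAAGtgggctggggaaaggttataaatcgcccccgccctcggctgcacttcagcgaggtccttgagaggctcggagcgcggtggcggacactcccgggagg
Tek, chr4:94739039-94739338, plus strand: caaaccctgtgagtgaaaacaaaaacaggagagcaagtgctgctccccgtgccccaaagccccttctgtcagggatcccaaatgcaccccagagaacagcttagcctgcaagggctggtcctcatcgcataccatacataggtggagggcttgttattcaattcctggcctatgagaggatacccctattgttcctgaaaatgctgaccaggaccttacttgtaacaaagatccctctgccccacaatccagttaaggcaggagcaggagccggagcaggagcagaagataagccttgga
Tie1, chr4:118489800-118490099, minus strand: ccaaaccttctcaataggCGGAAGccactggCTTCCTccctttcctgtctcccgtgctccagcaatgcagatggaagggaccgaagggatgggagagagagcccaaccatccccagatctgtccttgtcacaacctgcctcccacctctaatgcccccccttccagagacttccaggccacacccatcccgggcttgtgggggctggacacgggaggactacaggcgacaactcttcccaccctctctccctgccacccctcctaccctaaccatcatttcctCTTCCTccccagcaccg
The Tie1 window held 3 copies of the motif, starting 232 and 219 bases before the start and 34 bases after it. The Flt1 window held 2 copies, 129 and 53 bases before the start, and no copy was found in these 300 bases for Kdr or Tek. Over all marker windows 11 of 20 (55.0%) held the motif, against 46.5% of the 32851 windows in the table. The motif ACAAAG or ACAATG, read on both strands for SOX factors, was in 4 of 20 (20.0%), against 28.6% of all windows. A match describes the letters and is not a binding site.

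Levels were compared between genes per kilobase of counted exon, as the mean over the 15 libraries. Plvap, which forms the diaphragms of endothelial pores and vesicles, was highest at 96.8 CPM per kb. It was followed by Plxnd1, a semaphorin receptor, at 70.7, and Cdh5, which encodes VE-cadherin, at 69.0. S1pr1, a receptor for sphingosine 1-phosphate, followed at 46.8, Tek (the angiopoietin receptor Tie2) at 42.0, its partner Tie1 at 41.6 and the natriuretic peptide clearance receptor Npr3, an endocardial marker, at 33.1. The lower end held Robo4 at 2.01, the apelin receptor Aplnr at 1.76, the tight junction gene Cldn5 at 1.27 and the arterial transcription factor Sox17 at 0.785. The other 20 genes lay between 4.48 (Dll4) and 28.4 (Pecam1). Neighbours in this order had overlapping library ranges except after Cdh5, Tie1, Ecscr, Sox7 and Dll4.

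**Figure D1:**
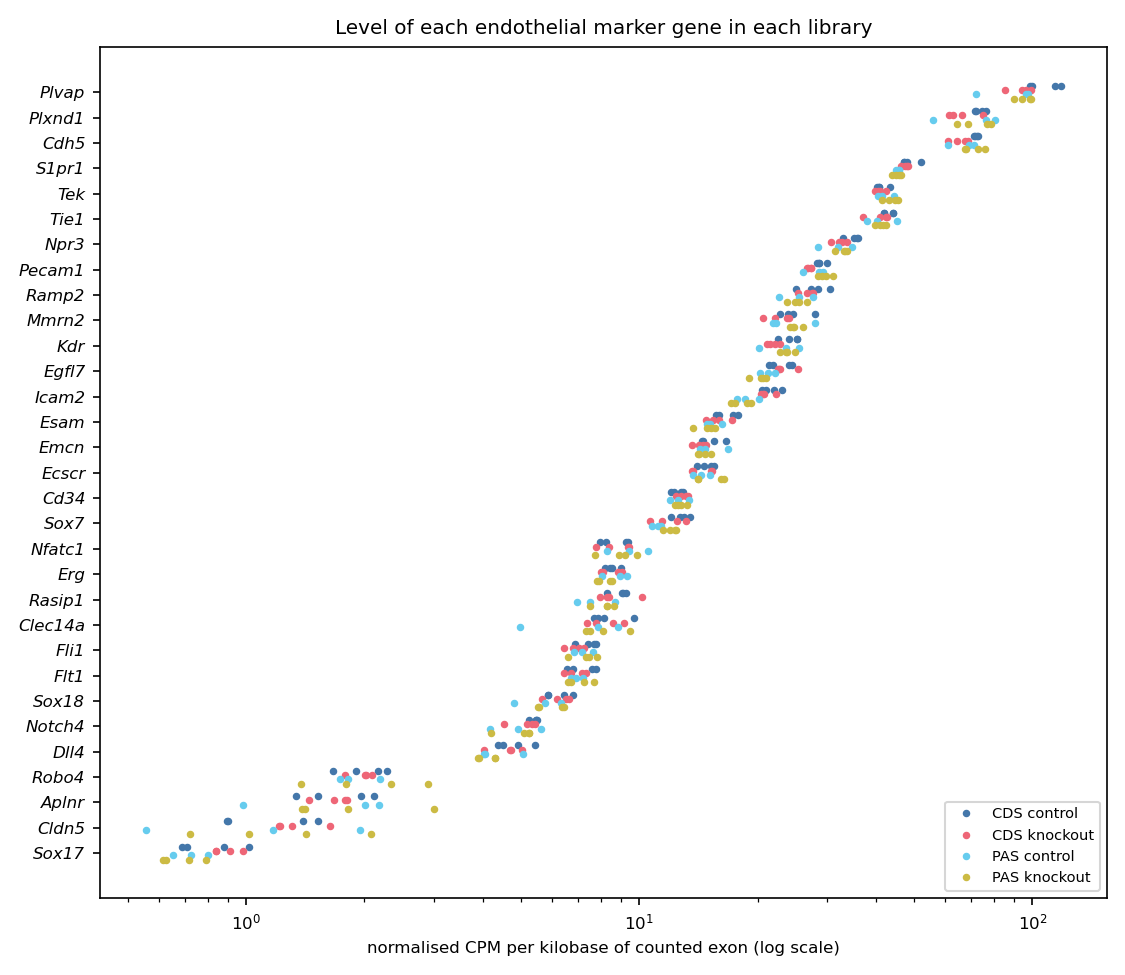
Normalised CPM per kilobase of counted exon (log axis) for each of the 31 marker genes, 1 point per library, coloured by group, genes ordered by mean level. Plvap leads at a mean of 96.8 and Sox17 is last at 0.785, and the points of the 4 groups lie close together for most genes.

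Among the VEGF, angiopoietin and apelin receptors Tek was the most abundant per kilobase. Its level was 188, 193, 200.2 and 191 CPM in the CDS knockouts and 189, 205, 192 and 192 CPM in the CDS controls. In the PAS line it was 214, 195, 204 and 211 CPM in the knockouts and 210.1, 196 and 191 CPM in the controls. Knockouts and controls overlapped in both lines. Kdr, the main signalling receptor for VEGF, ranged from 183 to 229.5 CPM over all libraries. Flt1, which binds VEGF with high affinity and limits its signal, ranged from 86.9 to 105 CPM.

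Plxnd1 led the genes of guidance and local signalling. It stood at 447, 485, 459.9 and 546 CPM in the CDS knockouts and 557, 522, 524 and 542 CPM in the CDS controls. In the PAS line it was 502, 471, 573 and 561 CPM in the knockouts and 556, 586 and 408 CPM in the controls, so the third PAS control was the lowest of all libraries. Ramp2, which makes the adrenomedullin receptor at the cell surface, ranged from 74.9 to 101 CPM. Of its counted exon bases 33.41% were shared with Vps25 on the same strand. Dll4, a Notch ligand of arterial and endocardial cells, ranged from 14.9 to 21.0 CPM, and Notch4, a Notch receptor of endothelium, from 33.6 to 45.4 CPM. Dll4 shared 14.17% of its counted exon bases with Gm14207 on the opposite strand.

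Sox7 was the most abundant transcription factor per kilobase, at 12.0 CPM per kb. Its SOXF relatives Sox18 and Sox17 were at 6.05 and 0.785 CPM per kb, and the ETS factors Erg and Fli1 at 8.47 and 7.19. Sox18 shared 25.93% and Sox17 16.85% of their counted exon bases with another gene on the opposite strand. Nfatc1, which acts in the endocardium during valve formation, was at 8.9 CPM per kb. It ranged from 57.6 to 78.6 CPM over the libraries and overlapped between all groups.

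Plvap, the most abundant of the surface and matrix genes, had its 2 highest levels in CDS controls. It was 235, 226, 196 and 198 CPM there and 191, 187, 169 and 197 CPM in the CDS knockouts. The PAS line had 187, 178, 197 and 196 CPM in the knockouts and 192, 193 and 143 CPM in the controls. The third PAS control was again the lowest library. Egfl7, a secreted endothelial protein whose gene hosts the miR-126 locus, and Mmrn2, a matrix protein that binds Clec14a, ranged from 68.2 to 91.0 and from 82.0 to 111 CPM. Rasip1, which endothelial cells need to open a lumen, ranged from 22.2 to 32.5 CPM. Of its counted exon bases 28.67% were shared with A030001D20Rik and 6.93% with Gm45437 on the opposite strand. Izumo1 shared 20.42% on the same strand. Ecscr, a surface protein of endothelium, ranged from 23.9 to 28.9 CPM.

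Cdh5 led the junction and adhesion genes, followed per kilobase by Pecam1. Esam, an adhesion protein of endothelial tight junctions, ranged from 39.4 to 51.1 CPM, and Cd34, a sialomucin of endothelium and blood progenitors, from 87.1 to 97.4 CPM. Both overlapped between knockouts and controls in each line.

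The first comparison asked how the marker genes stood in the CDS knockout ventricles. None of the 31 passed the test (edgeR quasi-likelihood, Benjamini-Hochberg adjusted over all genes, adjusted p = 1 for each), where 0.0543% of all genes were called (11 genes). DESeq2 and limma-voom likewise called 0 of them. The fold of control ranged from 0.870 for Plvap to 1.15 for Cldn5, and 24 of the 31 had a 95% interval wholly within 0.8 to 1.25 of control. The intervals of Plvap, Plxnd1, Clec14a, Robo4, Aplnr, Cldn5 and Sox17 reached past those bounds. Direction leaned low: 25 estimates were below 0 and 6 above, with a median log2 difference of -0.05, while 50.6% of all genes were below 0 with a median of 0.00. At an unadjusted p under 0.05 there were 5 of 31 marker genes, all lower (Cdh5, Kdr, Pecam1, Npr3 and Plvap), where 1.28% of all genes were lower at that level. That count of 5 was 2 without CDS control 2, and 3 without CDS knockout 1 or CDS knockout 3. It was 7 without PAS control 1, and 6 without CDS control 3 or PAS control 3. Without the third CDS knockout, the library that stood apart, 20 estimates were below 0 and the median was -0.03. Without the second CDS control the median was -0.02 with 22 estimates below 0, and without the fourth 27 were below 0. The median deviation of the marker genes from their own means over all libraries averaged 0.058 log2 in the CDS controls. It averaged -0.009 in the CDS knockouts, -0.014 in the PAS knockouts and -0.027 in the PAS controls. The interaction and the comparison of the control groups below use the same CDS controls, so their directions are not independent of this one.

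Groups did not overlap for Cdh5 and Pecam1, both lower in the knockouts, where 1.32% of all genes were lower without overlap. Cdh5 (chromosome 8, 104828257 to 104871143, plus strand, GRCm39), the adhesion protein of endothelial junctions, stood at 270.4, 283, 256 and 289 CPM in the CDS knockouts and 304, 299.8, 307 and 299 CPM in the controls. Every knockout library lay below every control library. The fold was 0.908 (95% interval 0.846 to 0.975), which did not pass the adjusted test. Pecam1 (chromosome 11, 106545043 to 106641454, minus strand), an adhesion protein of endothelium that platelets and some leukocytes also carry, stood at 167, 170.2, 166 and 171 CPM against 178, 187, 176 and 179 CPM. Its fold was 0.937 (0.885 to 0.992). Its difference did not pass the adjusted test either.

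By role, 5 of 5 receptors for VEGF, angiopoietin and apelin and 6 of 6 genes of Notch, semaphorin, Robo, sphingosine and adrenomedullin signalling had estimates below 0 in the CDS knockouts. The 6 transcription factors divided 3 and 3, with a median log2 difference of 0.00. Of the 6 junction and adhesion genes 4 were below 0, and of the 8 surface, matrix and cytoskeleton genes 7 were. The summed level of the 31 genes was 2988 to 3228 CPM in the CDS knockouts and 3240 to 3396 CPM in the controls. These sums did not overlap, and abundant genes weigh most in them. The sums of 25 endothelial genes outside the set overlapped, at 2082 to 2189 CPM against 2166 to 2306 CPM. Of the 15 cardiomyocyte markers 0 were called and 14 had estimates below 0, with overlapping sums of 41160 to 45590 CPM against 44200 to 48380 CPM. The 11 cushion mesenchyme markers, genes of the cells that endocardium gives rise to in the valve-forming cushions, had 11 of 11 estimates above 0 with 0 called, and summed to 3167 to 3802 CPM against 2832 to 3462 CPM. The sum of 2832 CPM was that of CDS control 1, and the other CDS controls summed to 3186 to 3462 CPM. Postn, of this list, had 3135 counts in CDS control 1 and 7011 to 10957 in the other CDS controls. The count of 11 was not repeated without that library. Liver markers summed to 35.94 to 175.7 CPM in the CDS knockouts against 30.15 to 54.22 CPM in the controls over 9 genes. Group means were 72.4 against 25.1 CPM for Ttr, 16.9 against 15.7 CPM for Trf and 2.84 against 3.41 CPM for Apob. The highest group mean of the remaining liver genes in this line was 0.622 CPM (Afp, CDS knockouts). The part of these lists in the endothelial values was not tested.

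**Figure D2:**
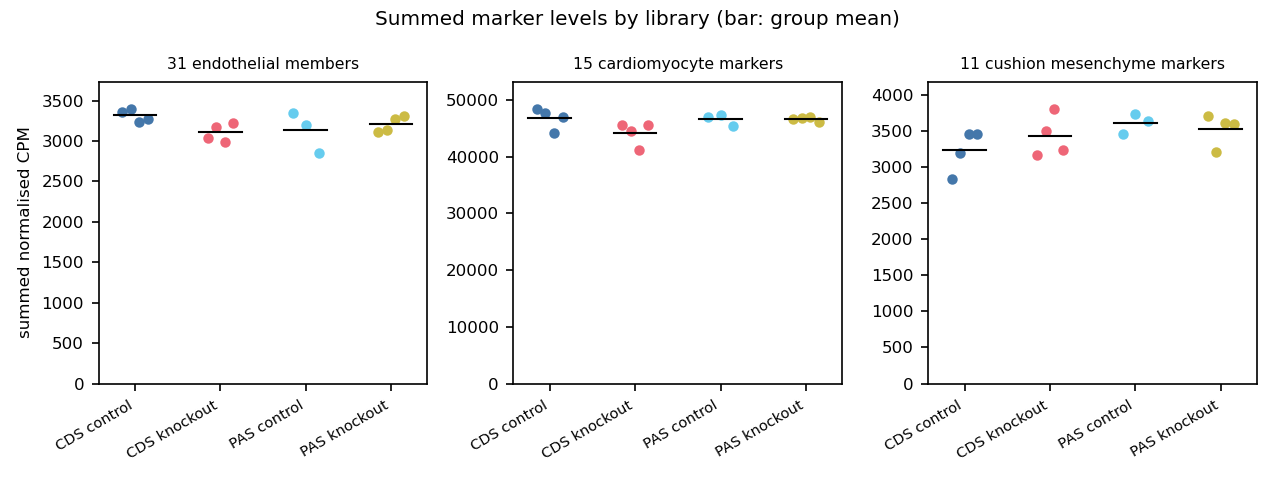
Summed normalised CPM per library for the 31 endothelial genes, 15 cardiomyocyte markers and 11 cushion mesenchyme markers, with points for libraries and bars for group means. The 4 CDS knockouts lie between 2988 and 3228 for the endothelial genes, below the 4 CDS controls at 3240 to 3396, and the PAS groups overlap.

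The same question was put to the PAS line. None of the 31 passed the test (edgeR quasi-likelihood, Benjamini-Hochberg adjusted p 0.981 to 1), where 0.00987% of all genes were called (2 genes). DESeq2 and limma-voom also called 0, and 0 had an unadjusted p under 0.05, a level reached by 5.24% of all genes. That count of 0 was 3 without PAS control 1, and 2 without PAS control 2 or without the filter on low counts. It was 1 without CDS knockout 3, PAS knockout 1 or PAS knockout 4. Folds ran from 0.933 for Erg and Dll4 to 1.12 for Clec14a, and 25 of 31 intervals lay within 0.8 to 1.25. Here 21 estimates were above 0 and 10 below, with a median log2 difference of 0.03, where 50.6% of all genes were below 0. That median turned with single libraries. Without the third PAS control it was -0.01 with 18 estimates below 0, and without the first it was 0.08 with 6 below 0. Without the second PAS knockout it was -0.0044 and without the second PAS control -2e-04, each with 16 estimates below 0.

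Sox7 (chromosome 14, 64181122 to 64188181, plus strand), a SOXF factor of vessel and endocardial development, was the 1 marker gene without overlap in the PAS line, where 2.21% of all genes were higher without overlap. It stood at 37.9, 40.9, 39.5 and 40.7 CPM in the knockouts and 37.5, 36.9 and 35.5 CPM in the controls. The lowest knockout lay just above the highest control. The fold was 1.09 (0.992 to 1.19), which did not pass (adjusted p = 0.981, edgeR quasi-likelihood, Benjamini-Hochberg). In the CDS line Sox7 was 37.7, 43.5, 35.1 and 41.1 CPM in the knockouts against 39.8, 42.8, 44.3 and 41.8 CPM in the controls, which overlapped. Cdh5 in the PAS line was 284, 285, 307 and 319 CPM against 290.4, 299 and 256 CPM, and Pecam1 was 182, 194, 186 and 177 CPM against 183, 162 and 179 CPM. Both overlapped. Erythroid markers had 10 of 10 estimates below 0 in this comparison, and their sums overlapped at 1188 to 2356 CPM against 1339 to 3596 CPM. Of the 9 megakaryocyte and platelet markers tested 8 were above 0, with a median log2 difference of 0.32 and overlapping sums of 52.74 to 79.88 CPM against 56.45 to 63.05 CPM. Of the 12 leukocyte markers 10 were below 0, with overlapping sums of 37.64 to 58.6 CPM against 26.52 to 60.31 CPM. None of these markers was called, and their part in the endothelial values was not tested.

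**Figure D3:**
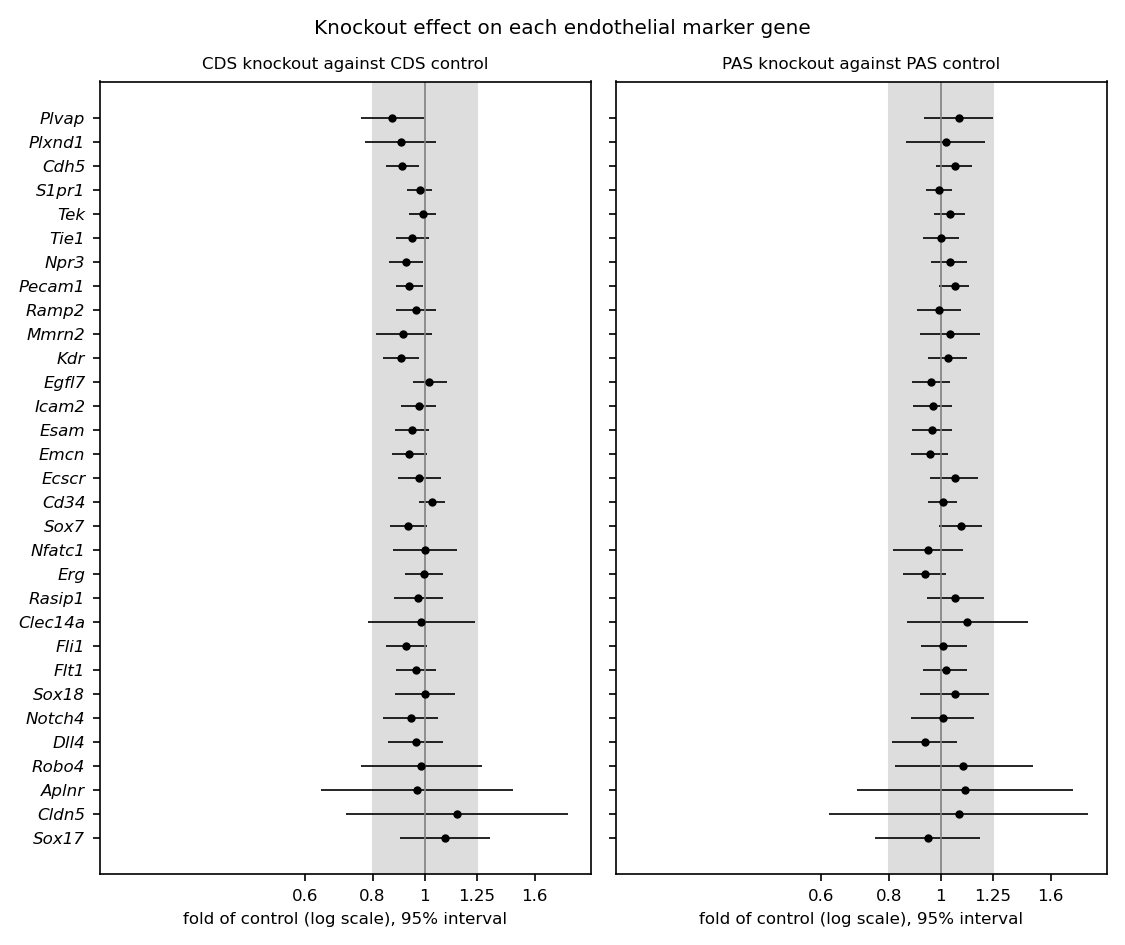
Fold of control (log axis) for each of the 31 marker genes with its 95% interval, for CDS (left) and PAS (right); the grey band spans 0.8 to 1.25. Intervals lie wholly in the band for 24 genes on the left and 25 on the right, and the widest belong to Cldn5 and Aplnr.

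An average over both lines joins lines in which Atf4 differed in opposite directions. The median differences of the marker genes also had opposite signs, though the sign in the PAS line turned with single libraries. Point estimates of this average ran from a fold of 0.945 (Emcn) to 1.11 (Cldn5). Of the 31 intervals 27 lay within 0.8 to 1.25, and the outermost bounds were 0.76 and 1.6. None of the 31 marker genes was called, where 0.0789% of all genes were (16 genes). Emcn, a sialomucin of endocardium and veins, was the 1 gene with an unadjusted p under 0.05 (1.84% of all genes were lower at that level), at a fold of 0.945 (0.895 to 0.998). By DESeq2 and by limma-voom 0 genes reached that level. The edgeR count was also 0 with any of 7 libraries left out (CDS control 1 or 2, CDS knockout 3, PAS control 1, PAS knockout 1, 3 or 4), and 4 without PAS control 3. The levels of Emcn were 76.6, 80.1, 73.8 and 78.7 CPM in the CDS knockouts against 83.9, 89.9, 78.8 and 78.2 CPM in their controls. In the PAS line they were 76.5, 82.5, 76.9 and 79.7 CPM against 90.9, 79.5 and 77.4 CPM. Knockouts and controls overlapped in both lines.

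Whether the knockout effect differed between the lines was tested as an interaction. None of the 31 passed (edgeR quasi-likelihood, Benjamini-Hochberg adjusted p = 0.995 for each), where 0.00493% of all genes did (1 gene). The PAS effect was above the CDS effect for 23 genes and below it for 8, where it was below for 50.1% of all genes. At an unadjusted p under 0.05 there were 6 of 31, Cdh5, Pecam1, Sox7, Kdr, Npr3 and Plvap, each with the PAS effect higher, where 2.11% of all genes were higher at that level. That count of 6 was 3 without CDS control 1, CDS control 2, PAS knockout 4 or PAS control 3, and 4 without CDS knockout 2, CDS knockout 3 or PAS knockout 3. It was 8 without PAS control 1. Without CDS control 2 or PAS control 3 the PAS effect was above for 19 genes and below for 12. Without PAS control 1 it was above for 26 and below for 5. The median difference of log2 effects was 0.09, and 0.04 without PAS control 3. With 1 library left out it reached at most 0.1188. The precision of this comparison was lower, with 14 of 31 intervals of the ratio of folds inside 0.8 to 1.25.

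The 2 control groups were compared as a baseline between the lines, which also differ in counting run and depth, so that line, run and depth cannot be told apart. None of the 31 was called (lowest adjusted p = 0.218, Icam2, edgeR quasi-likelihood, Benjamini-Hochberg), where 0.143% of all genes were (29 genes). Lower estimates in the PAS controls were found for 25 of 31, with a median log2 difference of -0.07, while 48.7% of all genes were below 0. The CDS controls are the same libraries as in the CDS knockout comparison and the interaction. The 6 genes with an unadjusted p under 0.05 were all lower (Icam2, Sox7, Plvap, Rasip1, Npr3 and S1pr1), where 5.34% of all genes were lower at that level. S1pr1, Sox7, Cdh5, Icam2 and Plvap did not overlap and were lower, where 5.16% of all genes were. Without the first PAS control the median was -0.14 and 12 genes had an unadjusted p under 0.05, and without the third PAS control there were 4. Cushion mesenchyme markers had 11 of 11 estimates above 0 in the PAS controls, with a median log2 difference of 0.20, 0 called and overlapping sums of 3452 to 3736 CPM against 2832 to 3462 CPM. The sum of 2832 CPM was again that of CDS control 1, and the other CDS controls summed to 3186 to 3462 CPM. This count of 11 was not repeated without that library either. The part of these markers in the endothelial values was not tested.

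A contrast of both PAS groups (7 libraries) with both CDS groups (8 libraries) was added after the values were seen. It called 2 of 31 marker genes, both lower in the PAS line, where 3.42% of all genes were called and 2.28% were called lower. Icam2 (chromosome 11, 106268482 to 106278901, minus strand), an adhesion protein of endothelium and platelets, stood at 39.5, 42.5, 38.9 and 39.4 CPM in the CDS knockouts and 41.9, 43.8, 40.0 and 39.0 CPM in their controls. In the PAS line it stood at 32.5, 36.7, 35.8 and 33.4 CPM in the knockouts and 38.3, 35.3 and 33.7 CPM in the controls. All 7 PAS libraries were below all 8 CDS libraries, where 0.819% of all genes were lower without overlap. The fold was 0.867 (0.819 to 0.918, adjusted p = 0.00476, edgeR quasi-likelihood, Benjamini-Hochberg).

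Egfl7 (chromosome 2, 26470026 to 26483132, plus strand) was the other. It stood at 81.1, 91.0, 81.8 and 80.6 CPM in the CDS knockouts and 87.5, 85.9, 78.5 and 76.4 CPM in the CDS controls. The PAS line had 73.0, 75.4, 74.1 and 68.2 CPM in the knockouts and 79.1, 72.5 and 76.2 CPM in the controls. The lines overlapped. The fold was 0.897 (0.850 to 0.946, adjusted p = 0.0203, edgeR quasi-likelihood, Benjamini-Hochberg), and the call was lost without CDS knockout 2 (0.0541), CDS control 1 (0.0537), PAS knockout 4 (0.0516) or PAS control 2 (0.0525). Of its counted exon bases 1.79% were shared with Agpat2 on the opposite strand, counted without strand. RefSeq gives it 3 promoter windows, which held 3, 2 and 0 copies of the ETS motif from the first start to the last along the chromosome. The first is shown, with its copies in capitals starting 216, 89 and 49 bases before the start.
Egfl7, chr2:26580833-26581132, plus strand: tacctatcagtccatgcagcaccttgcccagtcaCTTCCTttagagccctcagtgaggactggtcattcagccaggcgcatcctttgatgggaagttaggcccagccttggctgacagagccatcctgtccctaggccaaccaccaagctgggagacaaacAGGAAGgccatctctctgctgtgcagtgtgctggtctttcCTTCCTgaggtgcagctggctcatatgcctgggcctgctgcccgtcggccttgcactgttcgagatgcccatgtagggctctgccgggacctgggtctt

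Aplnr, Cldn5, Robo4 and Clec14a differed most between libraries of 1 group, a set picked after the values were seen and given without a test. Aplnr, which binds apelin and Apela, stood at 5.13, 11.1, 5.21 and 6.73 CPM in the PAS knockouts and 7.40, 3.63 and 8.06 CPM in the PAS controls. Robo4, which stabilises vessels, was 7.32, 15.4, 9.53 and 12.4 CPM against 9.65, 9.17 and 11.6 CPM. The second PAS knockout was the highest library for both, and the second PAS control was the lowest for Aplnr. Cldn5, the tight junction claudin of endothelium, was 1.02, 2.95, 1.44 and 2.01 CPM against 1.66, 0.786 and 2.76 CPM. Clec14a, a C-type lectin of endothelium, was 34.2, 43.2, 33.5 and 36.9 CPM against 36.0, 22.7 and 40.3 CPM. The second PAS control was again the lowest library for both. In the CDS line the ranges were narrower, 4.96 to 7.83 CPM for Aplnr and 1.26 to 2.32 CPM for Cldn5. Cldn5 rested on as few as 18 counts in a library, while Clec14a was covered far more deeply.

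**Figure D4:**
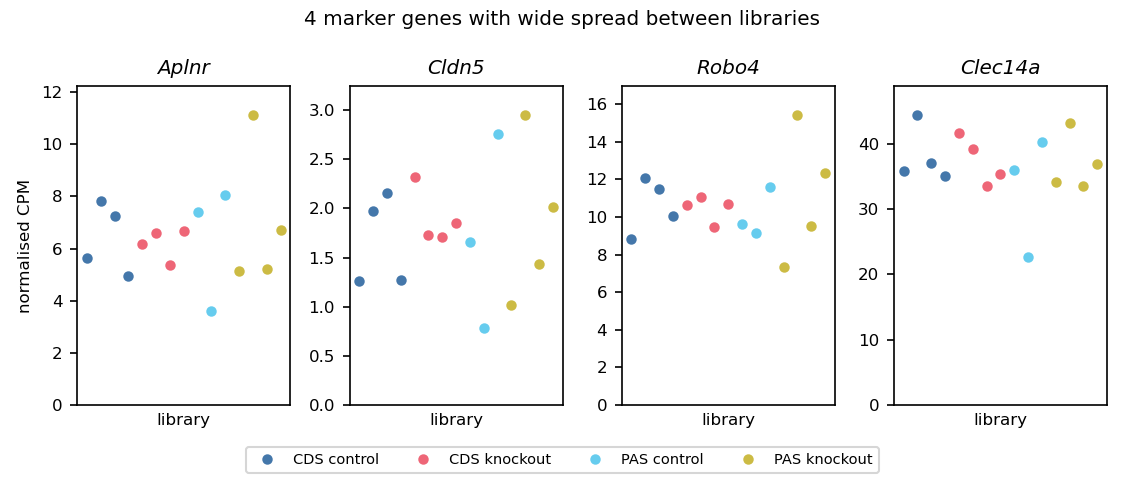
Normalised CPM of Aplnr, Cldn5, Robo4 and Clec14a in each of the 15 libraries, coloured by group, each axis from 0. The second PAS knockout is high for Aplnr (11.1), Cldn5 (2.95) and Robo4 (15.4), and the second PAS control is low for Aplnr (3.63), Cldn5 (0.786) and Clec14a (22.7).

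The libraries also differed across the whole set. The third PAS control was the lowest library for 9 of 31 marker genes, with 7 above their own 15-library mean, although its Aplnr and Cldn5 were high. The second CDS control had 24 of 31 above their own mean and the first PAS knockout had 5. The median coefficient of variation was 5.57% in the CDS controls, 6.40% in the CDS knockouts, 5.63% in the PAS knockouts and 9.90% in the PAS controls. The spread of marker genes was thus largest in the group of 3 libraries.

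**Figure D5:**
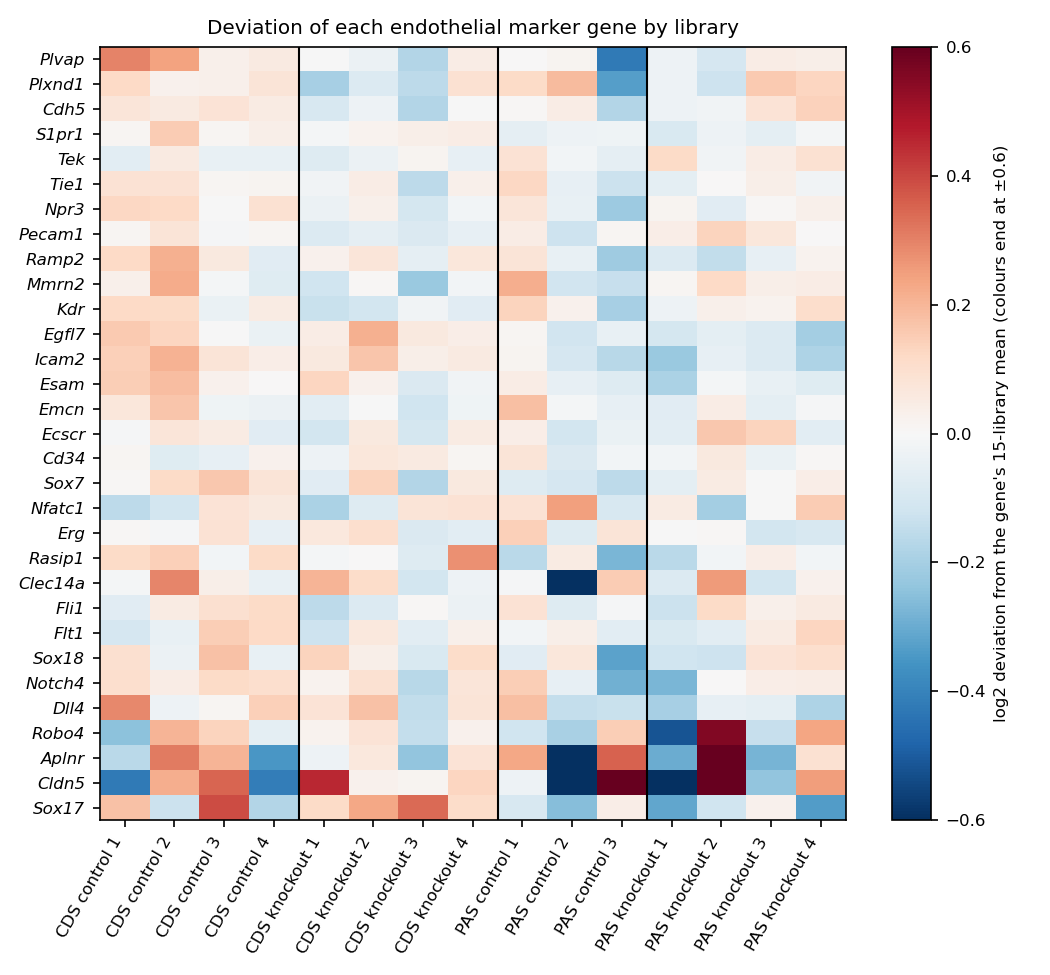
Log2 deviation of each marker gene from its own 15-library mean, libraries in columns by group, genes in rows by level, colours ending at ±0.6. The third PAS control is low for most rows and the second CDS control is high for 24 of 31, and colours reach their end for Aplnr, Cldn5 and Clec14a, with a lowest deviation of -1.11 for Cldn5 in the second PAS control.

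The neighbours of these genes in their pathways were read from lists of other genes. Of 15 VEGF, angiopoietin and apelin pathway genes, 16 of Notch and arteriovenous identity and 14 of endocardium-to-myocardium signalling, 0 were called in either knockout comparison. Of 25 other endothelial genes, 0 were called in either, with 18 CDS and 13 PAS estimates below 0. Tmem100, a membrane protein of endothelium induced by BMP signalling, was the 1 of the 25 called between the control groups (log2 difference 0.76 ± 0.12 SE, adjusted p = 0.00764, edgeR quasi-likelihood, Benjamini-Hochberg). It stood at 37.9, 27.5 and 24.6 CPM in the PAS controls, above 16.4 to 18.9 CPM in the CDS controls and 16.0 to 20.0 CPM in the PAS knockouts.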

How the data were processed

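Ventricular RNA was sequenced in 15 libraries. Per the file headers, the deposited files hold raw read counts per gene made with featureCounts 2.1.1 on GENCODE release 37 (GRCm39), with no strand option, and the second value used, counted exon length in bases, comes from the same files. The submitters' processing notes name HISAT2 2.2.1 and STAR 2.7.11b and list both GRCm38 and GRCm39, with no role given. Names from GENCODE M21 matched 51487 of 78317 identifiers, which held 98.85% of counts.

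Counts were filtered (filterByExpr, minimum count 10; 20269 genes kept), scaled by TMM (factors 0.986 to 1.01) and tested with edgeR 4.0.16 quasi-likelihood in R 4.3.3, with a mean per group, 11 residual degrees of freedom and Benjamini-Hochberg adjustment over all genes at 0.05. The biological coefficient of variation was 7.44%. The test was checked on simulated data. Levels are normalised CPM, and 95% intervals come from the fit. Called means an adjusted p under 0.05. Alternatives were DESeq2 1.42.0, limma-voom (limma 3.58.1), other scaling, no filter, only the groups compared, a replicate block and leaving libraries out. The contrast of both PAS with both CDS groups was added later.

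The marker genes and lists were chosen with earlier results of these data known. Named in full were marker genes called in a contrast, those with the largest differences without overlap in a knockout contrast, and the most abundant of each role. Genes outside that rule were chosen after their values were seen. The labels call the libraries biological replicates without tying them to animals, so p-values measure the spread between these libraries. No columns of other samples were found.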

Additional observations from a re-analysis of the deposited data

Results flagged for a closer look

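Within groups of 4 libraries, 3 marker gene values lay apart from the rest by Dixon's test at the 95% level. Over 93 gene and group combinations examined, 4.65 would be marked at the 5% chance rate. Notch4, an endothelial Notch receptor, was 33.9 CPM in PAS knockout 1, and the other 3 PAS knockouts lay at 41.0 to 42.3 CPM. S1pr1 was 158 CPM in CDS control 2, against 143 to 146 CPM in the other CDS controls. Egfl7 reached 91.0 CPM in CDS knockout 2, while its 3 fellow libraries held 80.6 to 81.8 CPM. The causes were not tested.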

How the results depend on the processing

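No marker gene was called in either knockout comparison, in their mean or in their difference under any alternative run, including DESeq2, limma-voom and each library left out. Between the control groups 1 marker gene was called without the filter on low counts (Sox7, adjusted p = 0.0456, edgeR quasi-likelihood, Benjamini-Hochberg), and in the added contrast of the lines 4 were called without the filter and 1 to 2 with 1 library left out. Counts over all genes moved more. Without the filter they were 31 (CDS), 7 (PAS), 28 (mean), 3 (difference), 201 (controls) and 1108 (lines). DESeq2 gave 20 (CDS), 7 (PAS), 2 (difference) and 101 (controls), and limma-voom gave 2 (difference). With only the groups compared they were 1 (PAS) and 10 (controls). Without CDS knockouts 3 and 4 they were 10 (mean) and 309 (lines). With 1 library left out they ranged over 1 to 2 (difference), 15 to 43 (controls) and 400 to 779 (lines), and the median log2 difference of the marker genes between controls over -0.1401 to -0.0607. The causes were not tested.

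Some log2 differences changed sign. Tek in the CDS comparison was 0.0013 without CDS knockout 1 and 0.0158 without CDS control 2, in a range of -0.0295 to 0.0158 with 1 library left out. Plxnd1 in the PAS comparison was -0.0157 without PAS knockout 3, -0.0047 without PAS knockout 4 and -0.1164 without PAS control 3, in a range up to 0.1283. Plvap there was -0.0205 without PAS control 3, in a range up to 0.1817.

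Replicate numbers did not pair the libraries: correlations of same-numbered deviations were -0.037 to 0.064 in the CDS line and -0.203 to 0.026 in the PAS line. Not every library correlated best with its own number. The replicate block gave 8 genes (CDS), 1 (PAS), 8 (mean), 1 (difference) and 23 (controls), with 0 marker genes called in each, and 2 in the added contrast. Under the block 3 marker genes had an unadjusted p under 0.05 in the CDS comparison, 0 in the mean and 3 in the difference. With only the groups compared the CDS comparison had 8.

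The smallest counts in a library were 18 for Cldn5, 71 for Sox17 and 83 for Aplnr. The part of depth in their spread was not tested, and Clec14a varied widely in the PAS controls with at least 520 counts in every library.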

Other observations

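Ttr, a liver-made carrier protein, was the 1 gene of the liver list called between the lines (adjusted p = 0.00338, edgeR quasi-likelihood, Benjamini-Hochberg), in the contrast added after the values were seen. It ranged from 13.8 to 154 CPM in the CDS knockouts and 11.2 to 35.2 CPM in the CDS controls. PAS libraries held 0.263 to 0.743 CPM. No link of Ttr to the endothelial values was tested.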
